A study of Mus musculus with 2 samples.

Results

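The 10 genes described here encode the core of the Polycomb repressive complexes and the enzymes that remove their histone mark. They were chosen by symbol and not by a filter on their levels, though earlier results of these data were known. All 10 were found among the 43346 Ensembl gene rows of the deposited tables. Ezh2, Ezh1, Eed, Suz12 and Jarid2 belong to Polycomb repressive complex 2 (PRC2), Rnf2, Ring1 and Bmi1 to Polycomb repressive complex 1 (PRC1), and Kdm6a and Kdm6b are H3K27 demethylases. They were measured in primary CFU-E (colony-forming unit erythroid) cells, committed red cell progenitors, isolated from bone marrow of adult C57BL/6J males, 5 to 6 weeks old. The labels gave no genotype change and no treatment. RNA depleted of ribosomal RNA was made into ScriptSeq libraries from 100 ng each, and 2 libraries, replicate 1 and replicate 2, form the only group. The design therefore has no comparison between conditions, and the values answer which Polycomb genes these cells expressed, in what proportions and in which annotated isoforms. Both libraries carry one donor identifier in the labels, though their biosamples differ, so their spread may hold technical as well as biological variation.

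PRC2 places methyl groups on lysine 27 of histone H3: EZH2 or its paralog EZH1 carries the catalytic site, which is active only when joined to EED and SUZ12. PRC1 adds ubiquitin to histone H2A through RNF2 (also called RING1B) or RING1, each paired with a PCGF protein such as BMI1. Both marks accompany silent developmental genes, the HOX clusters being the textbook example, and the demethylases KDM6A and KDM6B take the methyl groups off again. In human erythroid cells EZH1 has been described as taking over from EZH2 during maturation.

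The libraries held 62576357 expected counts in replicate 1 and 36889517 in replicate 2. Levels are TPM, which divides counts by transcript length and scales every library to the same sum, and the authors deposited a credibility interval with each value (its level is not given in the sources used here). Nuclear protein-coding genes held 12.4% of the TPM in replicate 1 and 7.49% in replicate 2, against 46.2% and 46.6% of counts. The classes snRNA, snoRNA and misc_RNA held 19.6%, 21.1% and 16.3% of TPM in replicate 1 and 52.9%, 8.65% and 17.7% in replicate 2. The TPM scale therefore differed between the libraries. Over the 3384 nuclear protein-coding genes with a mean count of 1000 or more, the median log2 ratio of replicate 1 over replicate 2 was 0.64 on the TPM scale. It was 0.03 for counts scaled by TMM (trimmed mean of M-values). TPM is used below to compare genes within a library, and TMM-scaled counts to compare the libraries.

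The cells carried the RNA of their labelled type, with RNA typical of other marrow cells beside it. All 15 erythroid markers reached 1 TPM in both libraries, with levels that summed to 27450 TPM in replicate 1 and 12710 TPM in replicate 2. Of 12 stem and early progenitor markers none reached 1 TPM in both libraries and Procr had 0 counts in both. Of 10 granulocyte markers 9 reached 1 TPM in both, with sums of 1220 and 617.5 TPM, and none was at 0. Monocyte and macrophage markers reached it for 8 of 10 (sums 142.9 and 89.6 TPM, with Cd14 at 0 counts in replicate 1), B cell markers for 4 of 8 (39.0 and 21.2 TPM, with Vpreb1 at 0 in replicate 1) and mast, basophil and eosinophil markers for 4 of 6 (35.5 and 21.4 TPM). T and NK cell markers (2 of 7, sums 5.36 and 2.86 TPM) and megakaryocyte markers (2 of 6, sums 13.8 and 4.24 TPM) were low. The part of other cells in the Polycomb levels was not tested. In bulk RNA of this kind, fewer cells of a type and less RNA per cell cannot be told apart.

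Many Ezh2 and Kdm6a counts were assigned to isoforms outside the protein-coding class, and the sequences that set these isoforms apart are shown because the TPM of both genes turns on them. Each line reads along the transcript, with the last 27 bases of a shared exon in lower case and the 21 bases that follow in capitals, from GENCODE M21 transcripts on mm10. Ezh2-209, annotated as a target of nonsense-mediated decay, goes on after the exon at chr6:47547345-47547436 (minus strand) into an exon of 82 bases at chr6:47546749-47546830 that no protein-coding Ezh2 isoform has. Its reading frame runs 18 bases into that exon and meets the stop codon TAA, which closes the line. The protein-coding Ezh2-203 goes on into the exon at chr6:47545676-47545916.
Ezh2-209: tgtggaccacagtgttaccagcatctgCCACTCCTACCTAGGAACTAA
Ezh2-203: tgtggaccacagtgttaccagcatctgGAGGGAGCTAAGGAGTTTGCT
Ezh2-207 reads from the exon at chr6:47542366-47542406 through the whole of the following 1510 bases, which are an intron of the protein-coding Ezh2-202. Only 1384 bases of Ezh2-207 lie outside protein-coding exons, so part of this stretch is exon in another protein-coding isoform.
Ezh2-207: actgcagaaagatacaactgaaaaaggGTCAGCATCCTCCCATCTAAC
Ezh2-202: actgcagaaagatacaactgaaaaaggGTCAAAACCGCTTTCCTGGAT
Kdm6a-204 reads from the exon at chrX:18277376-18277546 (plus strand, exon 28 of the protein-coding Kdm6a-201) into 714 of the 1079 bases of the next intron and ends there.
Kdm6a-204: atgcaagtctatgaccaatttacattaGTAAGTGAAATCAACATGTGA
Kdm6a-201: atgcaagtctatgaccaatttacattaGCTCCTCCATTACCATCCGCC

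The promoter windows of the paralogs Ezh2 and Ezh1 are shown because these genes share a catalytic role and differed in level. Each holds 300 bases, 250 before and 50 after the RefSeq gene start on GRCm38.p6. Capitals mark the words CCAAT and the E2F words TTTCCCGC, TTTCGCGC, TTTGCCGC and TTTGGCGC, searched on both strands; no marked words overlap. Ezh2 (chr6:47594981-47595280, minus strand) has 3 CCAAT words and 1 E2F word, and Ezh1 (chr11:101226414-101226713, minus strand) has neither.
Ezh2: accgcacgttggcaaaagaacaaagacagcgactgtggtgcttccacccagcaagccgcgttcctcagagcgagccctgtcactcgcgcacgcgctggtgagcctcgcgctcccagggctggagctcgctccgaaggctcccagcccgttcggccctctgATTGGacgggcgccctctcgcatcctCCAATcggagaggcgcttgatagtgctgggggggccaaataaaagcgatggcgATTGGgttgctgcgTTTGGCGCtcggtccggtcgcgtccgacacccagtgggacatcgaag
Ezh1: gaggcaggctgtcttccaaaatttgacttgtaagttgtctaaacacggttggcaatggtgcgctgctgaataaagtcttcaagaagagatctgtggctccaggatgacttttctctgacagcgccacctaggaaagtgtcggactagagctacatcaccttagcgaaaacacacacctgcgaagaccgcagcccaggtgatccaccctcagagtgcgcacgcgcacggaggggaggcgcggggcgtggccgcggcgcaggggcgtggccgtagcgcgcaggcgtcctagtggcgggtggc
Of 32841 windows in the table, 37.4% hold a CCAAT word and 2.27% an E2F word. Among the 9 Polycomb and demethylase genes with a window, 4 (Ezh2, Suz12, Eed and Jarid2) hold CCAAT, and Ezh2 and Suz12 hold an E2F word. CG dinucleotides numbered from 17 to 41 in these windows, against a median of 7 over all windows.

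Most of the 10 genes were expressed, and they spanned a wide range. A level of 1 TPM or more in both was found for 7 of the 10, against 23.9% of 21461 nuclear protein-coding genes. Only Ring1 and Kdm6b were below 1 TPM in both, while Rnf2 was below it in replicate 1. The median of the 10 lay at the 84.3 percentile of nuclear protein-coding genes in replicate 1 and at 84.6 in replicate 2, where a percentile is the share of those genes that ranked lower. By mean TPM the order was Ezh2, Suz12, Kdm6a, Ezh1, Eed, Jarid2, Rnf2, Bmi1, Ring1 and Kdm6b. The means were 63.1 ± 31.9 TPM for Ezh2, 14.4 ± 1.76 TPM for Suz12 and 8.22 ± 4.02 TPM for Kdm6a at the upper end, and 0.21 ± 0.085 TPM for Ring1 and 0.105 ± 0.078 TPM for Kdm6b at the lower end (SD, n = 2). These SDs take in the difference in TPM scale between the libraries. Ezh2 stood apart from Suz12, Suz12 from Kdm6a, Ezh1 from Eed and Bmi1 from Ring1, since the values of these neighbours did not overlap between the libraries. For Ezh1 and Eed this held by TPM of all isoforms only: with protein-coding isoforms Eed, at 2.97 and 3.85 TPM, was above Ezh1, at 2.85 and 2.90 TPM, in both libraries. The values of the other neighbours overlapped across the libraries, whose TPM scales differ. Within each library Kdm6a was above Ezh1 (11.06 against 5.84 TPM in replicate 1, 5.37 against 4.22 TPM in replicate 2). Ring1 was likewise above Kdm6b (0.27 against 0.16 TPM and 0.15 against 0.05 TPM). By protein-coding isoforms Kdm6a was above Ezh1 in replicate 1 only (4.33 against 2.85 TPM, and 2.32 against 2.90 TPM in replicate 2). The order of Eed with Jarid2, Jarid2 with Rnf2 and Rnf2 with Bmi1 changed between the libraries.

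**Figure D1:**
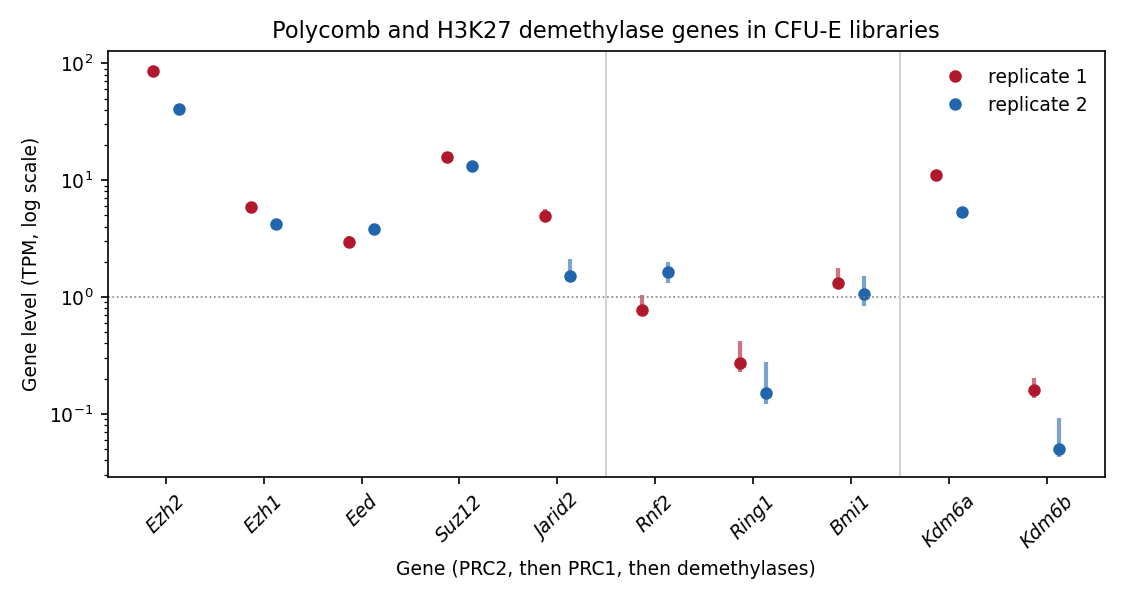
Level of each of the 10 genes in TPM (log axis) in replicate 1 and replicate 2, with the deposited credibility interval as a vertical line and a dotted line at 1 TPM. Ezh2 stands highest at 85.7 and 40.6 TPM and Kdm6b lowest at 0.16 and 0.05 TPM, with Rnf2, Ring1 and Bmi1 below Ezh2, Eed and Suz12.

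The PRC2 methyltransferase genes were led by Ezh2. Ezh2 (chr6:47530139-47595341, minus strand), the main H3K27 methyltransferase of dividing cells, had 85.7 TPM in replicate 1 and 40.6 TPM in replicate 2, from 14896 and 8753 counts. Its credibility intervals ran from 82.8 to 87.5 TPM and from 39.1 to 41.7 TPM. By TPM of all isoforms 151 nuclear protein-coding genes were higher in replicate 1 and 225 in replicate 2. With protein-coding isoforms only, 607 and 496 were higher. Ezh1 (chr11:101191115-101226463, minus strand), the paralog known from resting and differentiated tissues, had 5.84 and 4.22 TPM from 1979 and 1768 counts.

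Within each library Ezh2 exceeded Ezh1, by 14.7-fold in replicate 1 and 9.62-fold in replicate 2, a log2 ratio of 3.57 ± 0.43 (SD, n = 2). The size of that excess depended on which isoforms were counted. With TPM summed over protein-coding isoforms only, Ezh2 had 19.5 and 15.0 TPM, Ezh1 had 2.85 and 2.90 TPM, and the ratio was 6.84-fold and 5.17-fold. With counts and no length correction it was 7.53-fold and 4.95-fold. Ezh2 was higher than Ezh1 on all these scales in both libraries.

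The other PRC2 core genes were lower than Ezh2 and unequal to each other. Suz12 (chr11:79993106-80034123, plus strand), which encodes the scaffold that holds the complex together, had 15.7 and 13.2 TPM from 10448 and 7423 counts. Eed (chr7:89954654-89980983, minus strand), which encodes the subunit that binds the methylated histone tail, had 2.97 and 3.85 TPM from 893 and 1093 counts. Suz12 thus exceeded Eed 5.28-fold in replicate 1 and 3.42-fold in replicate 2 (log2 ratio 2.09 ± 0.44, SD, n = 2).

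Ezh2 exceeded Suz12 5.47-fold and 3.08-fold by TPM of all isoforms, but only 1.26-fold and 1.29-fold by TPM of protein-coding isoforms, and 1.43-fold and 1.18-fold by counts. Against Eed it was higher 28.9-fold and 10.5-fold by TPM of all isoforms, and 6.57-fold and 3.89-fold by protein-coding isoforms. On the protein-coding scale the levels of Ezh2 and Suz12 were therefore close to each other and both well above Eed.

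Jarid2 (chr13:44729474-44921643, plus strand), an accessory subunit that brings PRC2 to chromatin, had 4.91 TPM in replicate 1 and 1.52 TPM in replicate 2, from 1797 and 1178 counts. Its protein-coding isoforms had 1.34 and 1.46 TPM, on scales that differ between the libraries, so these values do not show equal levels. Scaled by TMM, the counts of the whole gene had a log2 ratio of replicate 1 over replicate 2 of -0.09. Relative to Ezh2, Jarid2 stood at 0.0573 and 0.0375 by TPM of all isoforms, and at 0.0687 and 0.0974 by protein-coding isoforms.

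The PRC1 genes were lower than the PRC2 core. Rnf2 (chr1:151458004-151500955, minus strand), the main E3 ubiquitin ligase of PRC1, had 0.77 and 1.64 TPM from 369 and 249 counts. Ring1 (chr17:34020792-34024680, minus strand), its paralog, had 0.27 and 0.15 TPM from 82 and 43 counts, whose exact 95% Poisson intervals ran from 65.2 to 102 and from 31.1 to 57.9. Such intervals take in counting error alone and would be too narrow if PCR copies of a molecule were counted as separate reads. Bmi1 (chr2:18677018-18686629, plus strand), which encodes a PCGF protein of canonical PRC1, had 1.32 and 1.07 TPM from 543 and 162 counts. The highest of the 3 PRC1 genes, at 1.32 TPM in replicate 1 and 1.64 TPM in replicate 2, lay below the lowest of Ezh2, Eed and Suz12, at 2.97 and 3.85 TPM. The same held for protein-coding isoforms, at 1.32 and 1.07 TPM against 2.97 and 3.85 TPM.

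Rnf2 exceeded Ring1 2.85-fold in replicate 1 and 10.9-fold in replicate 2 by TPM of all isoforms (log2 ratio 2.48 ± 1.37, SD, n = 2). By protein-coding isoforms the ratio was 2.96-fold and 2.60-fold. Bmi1 exceeded its PCGF paralog Pcgf2, which had 0 counts in replicate 1 and 7 counts in replicate 2. With Pcgf2 set to 3 counts in replicate 1, a limit of 0.015 TPM at its deposited gene length, Bmi1 was 88.0-fold higher there. That is no firm lower bound, because 3 counts of Pcgf2 in replicate 2, with another gene length, were 0.069 TPM. In replicate 2 Bmi1 was 6.69-fold higher.

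The demethylase genes differed widely in level. Kdm6a (chrX:18162575-18279936, plus strand), the X-linked H3K27 demethylase also called UTX, had 11.1 and 5.37 TPM from 6484 and 3047 counts. Kdm6b (chr11:69398508-69413675, minus strand), the demethylase also called JMJD3 and known for its induction by inflammatory signals, had 0.16 and 0.05 TPM from 165 and 52 counts, with 95% Poisson intervals of 141 to 192 and 38.8 to 68.2 counts. Kdm6a exceeded Kdm6b 69.1-fold in replicate 1 and 107-fold in replicate 2 (log2 ratio 6.43 ± 0.45, SD, n = 2), and 27.1-fold and 46.4-fold by protein-coding isoforms. Uty, the Y-linked relative of Kdm6a, had 3.70 and 3.42 TPM, so Kdm6a exceeded it 2.99-fold and 1.57-fold (1.48-fold and 1.66-fold by protein-coding isoforms).

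Over the 11 pairs formed within a library, the first gene was higher in both libraries for 9 and the second for 2 (Jarid2 below Ezh2, and Rbbp7 below Rbbp4), with no pair changing sign.

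**Figure D2:**
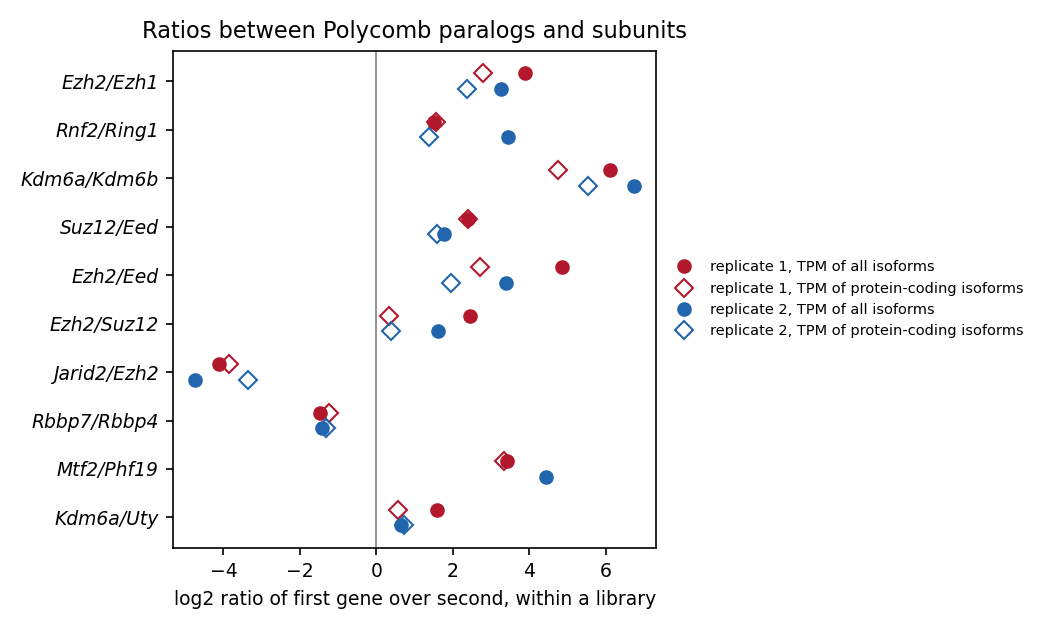
Log2 ratio of the first gene over the second within each library, for TPM of all isoforms (filled circles) and of protein-coding isoforms (open diamonds). The Ezh2/Suz12 circles stand at 2.45 in replicate 1 and 1.62 in replicate 2 and their diamonds at 0.33 and 0.37. Bmi1/Pcgf2 is left out because Pcgf2 had 0 counts in replicate 1, and Mtf2/Phf19 has no diamond in replicate 2, where no protein-coding Phf19 isoform had a level above 0 TPM.

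The isoform tables held 68 transcripts of the 10 genes, of which 25 had 0 counts in both libraries. For Ezh2 and Kdm6a, protein-coding isoforms took under 50% of the gene's TPM in both libraries. That is 2 of the 10 genes, against 10.5% of 9381 nuclear protein-coding genes with a mean count of 50 or more. It is set also against 17.0% of the 5785 among them with an isoform of another class annotated, as all 10 genes have. By counts the protein-coding share was under 50% in both libraries for 0 of the 10. A short transcript gets more TPM per count, so the share of TPM and the share of counts are given side by side. Whether reads of retained-intron isoforms came from finished messages or from RNA not yet spliced was not tested.

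For Ezh2, protein-coding isoforms held 22.8% of TPM in replicate 1 and 36.9% in replicate 2, or 47.0% and 55.2% of counts. Isoforms annotated as targets of nonsense-mediated decay held 48.7% and 19.0% of TPM, and retained-intron isoforms 22.6% and 36.2%. Ezh2-209, the 666-base transcript with the in-frame TAA shown above, had 29.7 and 6.51 TPM, from 2150 and 476 counts, which was 34.6% and 16.04% of the gene's TPM. Of its 666 bases only the 82 of the extra exon lie outside the exons of protein-coding isoforms, so most of its reads could not be told from theirs by position, and its value rests on how the authors' model shared reads. Counts that fell on the extra exon were not analysed here.

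The retained-intron isoforms of Ezh2 hold more sequence of their own. Ezh2-207, with the unspliced stretch shown above, had 7.51 and 6.37 TPM from 2547 and 2037 counts, and 1384 of its 2299 bases lie outside protein-coding exons. Ezh2-212 had 8.87 and 4.01 TPM from 1883 and 810 counts, with 1288 of 1522 bases outside. Ezh2-210, of 483 bases, had 3.02 and 4.29 TPM.

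Among the protein-coding isoforms of Ezh2 the libraries differed in which transcript took the reads. Ezh2-202 had 6.19 and 8.49 TPM in the libraries. Ezh2-203 had 9.46 TPM from 3574 counts in replicate 1 and 0 counts in replicate 2, while Ezh2-201 had 0 counts in replicate 1 and 4.39 TPM from 1637 counts in replicate 2. Their sum with the remaining protein-coding isoforms, 19.5 and 15.0 TPM, differed less than the single isoforms did.

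The protein-coding share of Kdm6a was alike in both libraries. These isoforms held 39.2% of TPM in replicate 1 and 43.2% in replicate 2 (62.2% and 66.0% of counts), with Kdm6a-201 at 4.09 and 2.25 TPM. In replicate 1 the intervals of Kdm6a-201 (1.79 to 4.26 TPM) and of the protein-coding Kdm6a-202 (0.0328 to 2.45 TPM) overlapped, so their split was not resolved there. The retained-intron transcript Kdm6a-204, whose boundary is printed above, had 4.40 and 2.02 TPM from 944 and 411 counts, and 1220 of its 1535 bases lie outside protein-coding exons. Kdm6a-203, also annotated with a retained intron, had 2.32 and 1.03 TPM from 1508 and 625 counts.

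Ezh1 divided its TPM between protein-coding and non-coding transcripts. Protein-coding isoforms held 48.8% of TPM in replicate 1 and 68.7% in replicate 2, and by counts 88.2% and 94.7%. Ezh1-203 had 1.57 and 1.94 TPM and Ezh1-201 had 1.16 and 0.96 TPM. In replicate 2 the deposited interval of Ezh1-203 ran from 0.0415 to 1.94 TPM, and that of Ezh1-202, at 0 TPM, reached 1.86 TPM, so the split between these isoforms was not resolved. Ezh1-205 and Ezh1-209, processed transcripts of 726 and 658 bases, had 1.94 and 1.04 TPM in replicate 1 and 0.49 and 0.70 TPM in replicate 2. They rested on 160 and 74 counts in replicate 1 and on 40 and 50 counts in replicate 2, so few reads carried a large part of the Ezh1 TPM.

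For Jarid2 and Rnf2 a short transcript with counts in a single library set much of the gene level. Jarid2-203, a processed transcript of 469 bases, had 1.46 TPM from 59 counts in replicate 1 and 0 counts in replicate 2. It has 0 bases outside protein-coding exons, so position alone does not tell its reads from those of protein-coding isoforms. Jarid2-215, a retained-intron transcript, had 1.36 TPM from 245 counts in replicate 1 and 0 counts in replicate 2. Of its 1322 bases 148 lie outside protein-coding exons. The protein-coding Jarid2-201 had 0.93 and 0.96 TPM and Jarid2-208 had 0.41 and 0.44 TPM, each with counts in both libraries. Rnf2-202, a processed transcript of 570 bases of which 26 lie outside protein-coding exons, had 0 counts in replicate 1 and 1.25 TPM from 73.3 counts in replicate 2, which was 76.2% of the gene's TPM there. The protein-coding Rnf2-201 had 0.77 and 0.39 TPM from 369 and 176 counts. The higher Rnf2 TPM of replicate 2 was therefore carried by Rnf2-202. Rnf2-201 had the opposite order by TPM, whose scale differed between the libraries. Its deposited intervals, 0.144 to 0.787 TPM in replicate 1 and 0.171 to 0.434 TPM in replicate 2, overlapped.

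Suz12, Bmi1, Eed, Ring1 and Kdm6b had mostly or only protein-coding isoforms. Suz12 split between Suz12-201 at 9.49 and 10.7 TPM and Suz12-206 at 6.00 and 0.86 TPM, and protein-coding isoforms held 98.9% and 88.0% of its TPM. Bmi1-202 had 1.32 TPM in replicate 1 and 0.28 TPM in replicate 2, where the 521-base Bmi1-206 had 0.76 TPM from 38.7 counts, against 0 counts in replicate 1. Eed had all its counts on Eed-201 and Kdm6b on Kdm6b-201, and Ring1-201 held 96.3% of the Ring1 TPM in replicate 1 and 100% in replicate 2.

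**Figure D3:**
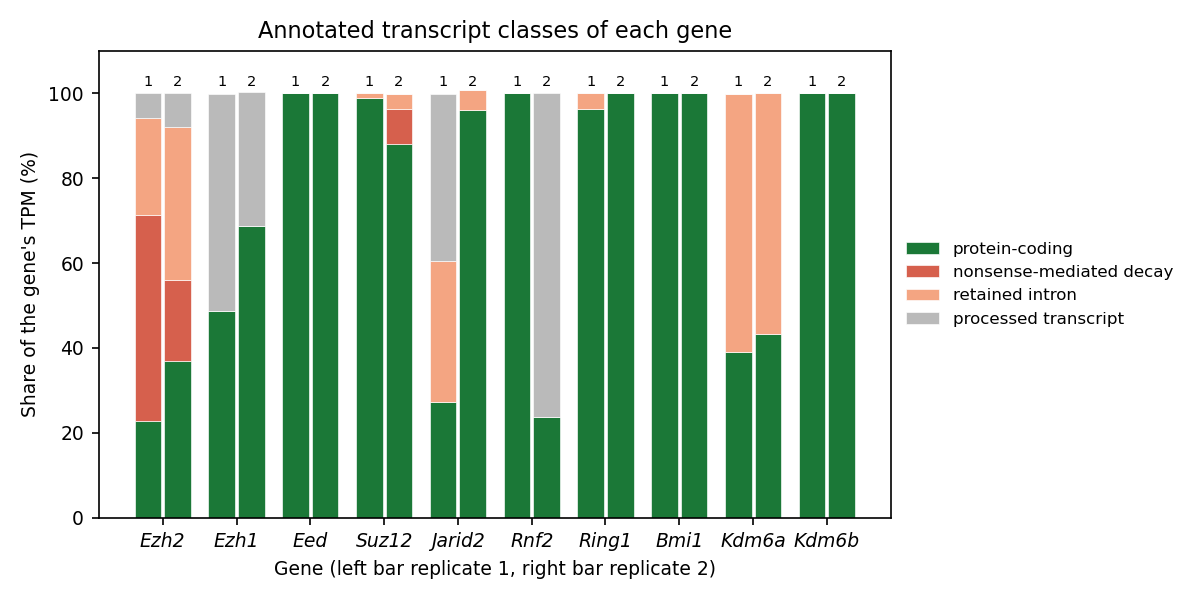
Share of each gene's TPM held by protein-coding, nonsense-mediated decay, retained-intron and processed transcripts, in % of gene TPM, with the left bar for replicate 1 and the right bar for replicate 2. Protein-coding isoforms hold 22.8% and 36.9% for Ezh2 and 39.2% and 43.2% for Kdm6a, but 100% in both libraries for Eed, Bmi1 and Kdm6b.

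Between the libraries, 9 of the 10 genes differed less than 2-fold in TMM-scaled counts. The exception, Bmi1, was 1 of the 10 to differ 2-fold or more between replicate 1 and replicate 2, against 21.1% of 10403 genes with a mean count of 50 or more (10.8% higher in replicate 1 and 10.3% higher in replicate 2). The log2 ratios of replicate 1 over replicate 2 ran from -0.99 for Eed to 1.04 for Bmi1, with a median of -0.01. Ezh2 had a CPM (counts scaled to library size) of 238 in replicate 1 and 237 in replicate 2, a TMM log2 ratio of 0.07. Kdm6a (0.39), Ring1 (0.23) and Kdm6b (0.96) were higher in replicate 1 on this scale and Suz12 (-0.21), Ezh1 (-0.54), Rnf2 (-0.13) and Jarid2 (-0.09) lower. The gene past 2-fold depended on the scaling: with nuclear protein-coding counts as the library size Bmi1 had 0.99 and Eed -1.04, and by CPM 0.98 and -1.05, so that Eed was past 2-fold in place of Bmi1. With 1 library on each side there is no test of these ratios.

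By TPM the libraries looked further apart. On that scale 5 of the 10 genes differed 2-fold or more: Ezh2, Jarid2, Kdm6a and Kdm6b were higher in replicate 1 and Rnf2 lower, against 30.8% of 9381 genes higher and 4.63% lower. The deposited TPM intervals of the libraries did not overlap for 8 of the 10, against 77.0% of those genes. With protein-coding isoforms only, Kdm6b alone was past 2-fold (background 30.0% higher in replicate 1 and 5.17% lower, of 8942 genes). The direction depended on the scale for Suz12, Ezh1 and Jarid2, which were higher in replicate 1 by TPM of all isoforms and lower by TMM-scaled counts. For Rnf2 the protein-coding TPM, higher in replicate 1, went against both. With TPM rescaled to nuclear protein-coding messages the log2 ratio of Bmi1 was -0.43, so its direction depended on the scale as well. The Ezh2 log2 ratio was 1.08 by TPM of all isoforms, 0.38 by protein-coding isoforms and 0.07 by TMM-scaled counts.

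**Figure D4:**
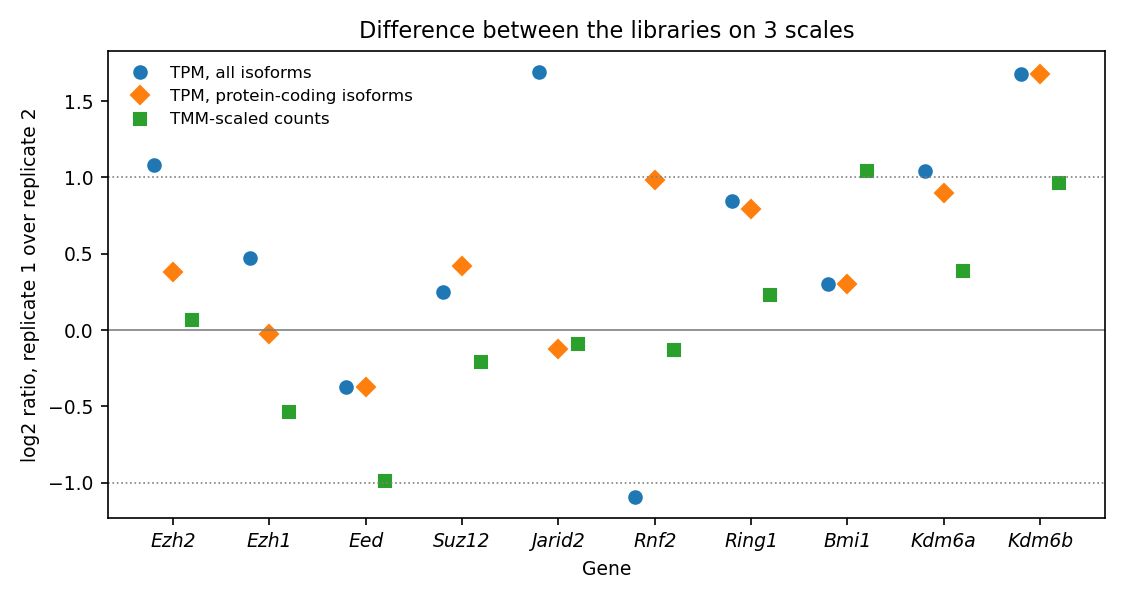
Log2 ratio of replicate 1 over replicate 2 for each gene by TPM of all isoforms, TPM of protein-coding isoforms and TMM-scaled counts, with dotted lines at 2-fold. Ezh2 lies at 1.08, 0.38 and 0.07 on the 3 scales and Rnf2 at -1.09, 0.98 and -0.13.

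The remaining machinery of the pathway was mostly expressed. Of 58 further genes in 8 lists of Polycomb subunits and partners, 39 had 1 TPM or more in both (background 23.9%) and 3 (Epop, Auts2 and Asxl3) had 0 counts in both (background 42.8%). Ezhip was not found by symbol.

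Each of the 6 genes of the PRC2 core list reached 1 TPM in both libraries. Rbbp4, a histone-binding subunit shared with other chromatin complexes, had 21.2 and 23.2 TPM and its paralog Rbbp7 had 7.63 and 8.71 TPM, so Rbbp7 stood at 0.360 and 0.375 of Rbbp4. Among the accessory subunits 6 of 8 reached 1 TPM in both, led by Lcor at 5.23 and 2.86 TPM, whose gene also encodes the PRC2 subunit PALI1. Mtf2, a Polycomb-like protein that binds CpG-rich DNA, had 2.04 and 3.67 TPM, against 0.19 and 0.17 TPM for its relative Phf19, a ratio of 10.7-fold in replicate 1 and 21.6-fold in replicate 2.

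Among the RING and PCGF genes of PRC1, 3 of 8 reached 1 TPM in both libraries, and the highest was not Bmi1 but Pcgf5, which encodes the PCGF protein of a variant complex, at 6.72 and 6.08 TPM. Of the genes of canonical PRC1 3 of 11 reached it, a share near the background of 23.9%, with medians of 0.43 and 0.31 TPM (0.0 and 0.04 TPM over all nuclear protein-coding genes). With TPM rescaled over nuclear protein-coding genes 9 of 11 reached 1 TPM. Cbx6 (4.76 and 1.5 TPM) and Cbx7 (1.61 and 1.21 TPM), which encode chromodomain proteins, and Phc3 (3.10 and 1.40 TPM), a polyhomeotic subunit, were the highest of them. Of the variant PRC1 genes 9 of 12 reached it, with medians of 2.30 and 2.15 TPM. Usp7, a deubiquitinase with many substrates, stood far above the rest at 145 and 114 TPM, of which protein-coding isoforms held 23.1 and 20.4 TPM. The corepressor genes Bcorl1 and Bcor followed, at 11.5 and 6.73 TPM and at 4.66 and 2.06 TPM.

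Genes of the enzymes that oppose Polycomb, and of their partners, were mostly expressed as well. Of the genes of the H2A deubiquitinase and its partners 8 of 10 reached 1 TPM in both. By mean TPM they were led by Hcfc1 (16.5 and 11.4 TPM), which encodes a substrate of the O-GlcNAc transferase, followed by Ogt (17.3 and 9.99 TPM), the gene of that transferase, and Asxl2 (8.67 and 5.58 TPM). Bap1, the gene of the deubiquitinase itself, had 7.82 and 3.34 TPM, of which protein-coding isoforms held 1.06 and 1.39 TPM. Of the demethylases and their COMPASS partners 10 of 12 reached 1 TPM in both. The H3K4 methyltransferase genes Kmt2c (20.5 and 14.0 TPM) and Kmt2d (9.69 and 6.40 TPM) stood beside Kdm6a. The H3K27 acetyltransferase genes Ep300 and Crebbp had 8.96 and 8.13 TPM and 3.38 and 2.23 TPM.

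The textbook targets of Polycomb had few or no reads. Of 39 HOX cluster genes 33 had 0 counts in both libraries, every Hoxc and Hoxd gene among them, and of 16 other known targets 15 did, against 42.8% of nuclear protein-coding genes. The 15 were Cdkn2a, Cdkn2b, Cdkn1c, Gata4, Gata6, Pax6, Sox1, Neurog1, Neurog2, Lhx2, Tbx5, Wnt1, Foxa2, Nkx2-2 and Olig2. At the deposited gene lengths, a limit of 3 counts per library allows up to 0.0301 TPM in replicate 1 and 0.0306 TPM in replicate 2 for these HOX genes. For the other targets it allows up to 0.0282 and 0.0288 TPM. Hoxa7 was the only HOX gene with counts in both libraries, 147 and 22, at 0.50 and 0.10 TPM. Hoxa9 had 163 counts in replicate 1 and 0 in replicate 2, and Hoxb2 had 0 and 17. Hoxa3 (19 and 0), Hoxa10 (6 and 0), Hoxb4 (0 and 1) and Bmp4 (0 and 6 counts) completed the detected targets. No histone mark was measured, so whether H3K27 methylation lay on these genes was not tested.

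**Figure D5:**
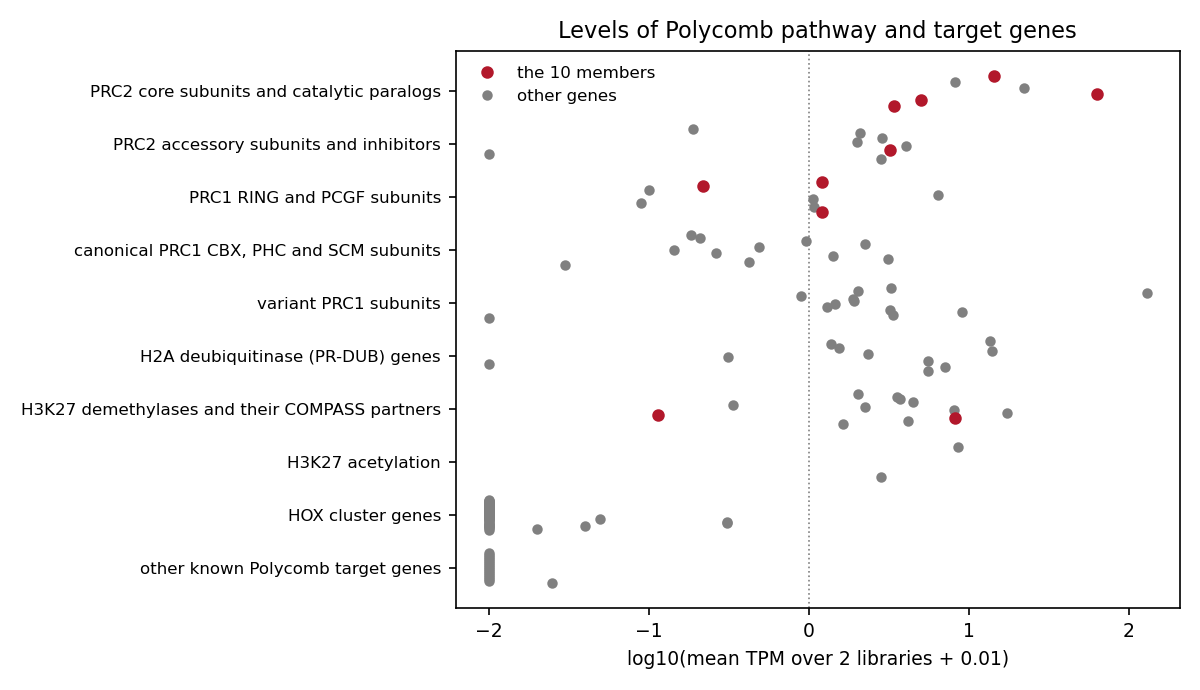
Mean TPM over the 2 libraries of each gene in 10 lists, on a log10 scale with 0.01 TPM added, so that genes at 0 TPM lie at -2, with a dotted line at 1 TPM. The 10 Polycomb and demethylase genes are in red, and the HOX and other target lists pile up at the left edge with 33 of 39 and 15 of 16 genes at 0 counts.

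Other annotated genes overlap some of the 10, and the way the authors counted strand is not given in the sources used here. Ezh2 shares 5039 bases with Gm26625 on the opposite strand (97 and 49 counts) and Suz12 shares 12515 with Gm26563 (67 and 35 counts), far fewer counts than their own. Rnf2 shares 158 bases with Trmt1l on the opposite strand, which had 1066 and 497 counts, more than Rnf2 itself. It also shares 3029 bases with Gm36527 on its own strand (62 and 35 counts), so the low Rnf2 count is the least certain in this respect. Kdm6bos, antisense to Kdm6b, had 0 counts in both.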

How the data were processed

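Per the labels, ScriptSeq libraries were made from 100 ng of RNA, with size ranges labelled 209 to 891 (replicate 1) and 186 to 747 bases (replicate 2). The authors deposited, per library, a gene and a transcript table of expected counts and TPM on mm10, with posterior mean TPM, credibility bounds (a score column on the TPM scale) and the percent of gene TPM per isoform. The annotation is GENCODE M4 per the deposited notes; no source used here gives the quantifier or aligner. Expected counts divide a read between transcripts it fits, and TPM divides by effective length, so short isoforms weigh heavily.

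Names, coordinates and transcript classes came from GENCODE M21 (42462 of 43346 Ensembl rows matched); 24 of 27 named transcripts have the same length in M21 as deposited (not Eed-201, Ezh2-201 and Ezh2-203). Protein-coding TPM is the sum over isoforms of that class, an alternative added after seeing the data, as were library ratios of rescaled TPM and CPM. Counts were rounded for edgeR 4.0.16 (TMM, R 4.3.3) and DESeq2 1.42.0 size factors; log2 ratios used a prior count of 0.5. TMM gave effective sizes of 61216283 and 37709101. Spike-in and unnamed numbered rows were left out. Python 3.11.15 with pandas 2.3.3, numpy 2.4.6, scipy 1.17.1 and matplotlib 3.10.9 did the rest, and the ratio step was tested on simulated data. With 1 group there is no test and no p-value; SDs are over n = 2.

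Genes named are all 10 members, in each list the 3 of highest mean TPM, those with 0 counts in both libraries and both genes of each pair, and transcripts with 10% or more of gene TPM in either library. Hoxa3, Hoxa10, Hoxb4, Bap1 and the overlapping genes were named after their values were seen. Members and lists were chosen with earlier results of these data known. Alternatives were posterior mean TPM, rescaled TPM, CPM, other minimums, a pseudocount of 0.1 TPM, other scalings and leaving out each replicate.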

Additional observations from a re-analysis of the deposited data

How the results depend on the processing

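The 7 genes at 1 TPM or more became 9 when TPM was rescaled over nuclear protein-coding genes and 10 by CPM. The median percentile of the 10 genes, 84.4, was 84.7 with posterior mean TPM, 86.0 by CPM, 82.6 with protein-coding isoforms only, and 70.2 among genes with a mean count of 10 or more, a background without silent genes. The 1 gene past 2-fold between libraries by TMM was 5 by deposited TPM, 2 (Eed and Rnf2) by rescaled TPM, where the log2 ratio of Bmi1 turned to -0.43 against 1.04 by TMM, and 0 with a mean count of at least 1000, which leaves out Bmi1. The 46 machinery genes at 1 TPM or more in both were 14 at 5 TPM. Leaving out each replicate gave 7 to 8 genes at 1 TPM, percentiles of 84.3 to 84.6, 9 pairs, 47 to 49 machinery genes, and 3 to 4 genes with protein-coding isoforms under 50% of TPM, against 2 with both (Jarid2 and Ezh1 only in replicate 1, Rnf2 only in replicate 2). Of 214 single values under these alternatives, 20 were mean TPM set on another unit. Beside these, 51 moved by more than the spread between replicates or, for ratios between libraries, by more than counting error, and the Bmi1 ratio was the only called value to change sign. No paired analysis was possible because there is 1 group. The depth limits Ring1 (82 and 43 counts) and Kdm6b (165 and 52 counts), for which isoform shares rest on few reads.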

Other observations

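The deposited TPM of Jarid2 in replicate 2, 1.52, lay below its own credibility interval of 1.63 to 2.09 TPM, and its posterior mean was 1.86 TPM. Among nuclear protein-coding genes at 1 TPM or more, 67 of 6416 (1.04%) in replicate 1 and 52 of 5364 (0.97%) in replicate 2 had a TPM outside their interval. In replicate 1 Jarid2 had 4.91 TPM, inside 4.57 to 5.69.

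The length that the authors' tables gave Jarid2, an average over its isoforms weighted by their levels, was 2462 bases in replicate 1 and 5312 bases in replicate 2. For Rnf2 it was 3160 and 1186 bases, and for Bmi1 2747 and 1189 bases. The lengths of Eed and Kdm6b, at 2065 and 6654 bases, were the same in both libraries.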
